A study of Homo sapiens with 4 samples.

Results

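The SLC1 genes encode sodium-dependent carriers for glutamate, aspartate and small neutral amino acids. The 5 members described here, SLC1A1, SLC1A2, SLC1A3, SLC1A4 and SLC1A5, were taken by their gene symbols from a table of 61806 genes measured in 4 RNA-seq libraries. The libraries came from JJ012, a human chondrosarcoma cell line, and 143B, a human osteosarcoma cell line, both kept in suspension so that the cells could not attach. For each line there was 1 untreated control library and 1 library from cells given 1 mM melatonin for 72 h. The comparison within each line asks what melatonin changes in detached bone cancer cells, and the study's interest lay in glutamine, a substrate of SLC1A5. The columns of the treated libraries were recognised by the suffix T after the name of the line. With 1 library per condition, a difference within a line or between the lines had no replicate to be tested against, and every interval given here covers counting error alone. An effect of melatonin shared by both lines could be tested, with the line as a block and 1 residual degree of freedom. Copies made by PCR are not separate molecules, so these intervals are a lower limit.

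Library totals lay between 15889564 and 19218343 counts. Of the 9 chondrocyte markers looked up, SOX9 and COL11A1 reached 1 FPKM in the JJ012 libraries, while COL2A1, the main cartilage collagen, had 0 counts there. SOX9, the chondrocyte transcription factor, was as high in the 143B control (15.48 FPKM) as in the JJ012 control (15.06 FPKM). Of the 9 osteoblast markers, 3 reached 1 FPKM in each 143B library, and IBSP, a bone matrix protein, had 0 counts. The osteoblast markers summed to 107.22 FPKM in the JJ012 control, mostly SPP1 with 79.39 FPKM, against 8.7 FPKM in the 143B control. This sum was thus higher in the chondrosarcoma line, as were SPP1, COL1A1, COL1A2 and the scarce IBSP and SP7 singly. RUNX2 (3.02 against 4.28 FPKM), DLX5 (0 against 1.73) and BGLAP (0.81 against 1.44) were higher in the 143B control. ALPL (0.35 against 0.36) was about level. With melatonin, the sum of the osteoblast markers in JJ012 was 68.34 FPKM, and that of the chondrocyte markers went from 39.74 to 9.98 FPKM. COL11A1 went from 22.92 to 3.24 FPKM and COL1A2 from 12.48 to 0.14 FPKM in JJ012. In treated 143B the osteoblast markers summed to 8.72 FPKM, and the chondrocyte markers to 13.41 FPKM against 16.92 FPKM in its control. The 5 markers of glia and neurons, the cells in which several SLC1 carriers are best known, stayed under 1 FPKM in every library. The summed FPKM of the 4 blood cell markers fell from 10.32 to 3.37 in JJ012, nearly all of it CD3E, a T cell receptor subunit, and was at most 0.13 in 143B. The endothelial markers summed to between 0.93 and 2.40 FPKM and the epithelial markers to between 0.05 and 1.4 FPKM over the 4 libraries. In JJ012 the endothelial sum went from 2.23 to 0.93 FPKM, the epithelial from 0.16 to 0.05 and that of glia and neurons from 1.85 to 0.99. Every marker sum thus fell in JJ012 with melatonin while SLC1A4 and SLC1A5 rose. The part of these marker changes in the values of those genes was not tested.

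The family splits by substrate. SLC1A1 (EAAT3), SLC1A2 (EAAT2) and SLC1A3 (EAAT1) take up glutamate and aspartate against a steep gradient, driven by sodium and proton entry and potassium exit. In brain, SLC1A2 and SLC1A3 are astrocyte carriers that clear glutamate from synapses, whereas SLC1A1 is found in neurons and in kidney and gut epithelium and also takes up cysteine, the limiting precursor of glutathione. SLC1A4 (ASCT1) and SLC1A5 (ASCT2) are exchangers of alanine, serine and cysteine. SLC1A5 also carries glutamine and is the family member studied most in tumours.

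In all 4 libraries SLC1A5 was the most abundant member, followed by SLC1A1 and SLC1A4, while SLC1A2 and SLC1A3 stayed below 1 FPKM. FPKM is the count scaled by the exonic length of the gene and by the total of the library, so it allows genes to be compared with each other. After melatonin, SLC1A4 was 2.13-fold higher in JJ012 and 1.42-fold higher in 143B by CPM, the count scaled by the library total alone. SLC1A5 was 1.38-fold higher in treated JJ012, and SLC1A1 differed little within either line. Between the untreated lines, SLC1A3 showed the widest gap of the members with counts in both lines, being 6.82-fold lower in JJ012. In these bulk libraries, a smaller share of cells with a transcript and less transcript per cell cannot be told apart.

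**Figure D1:**
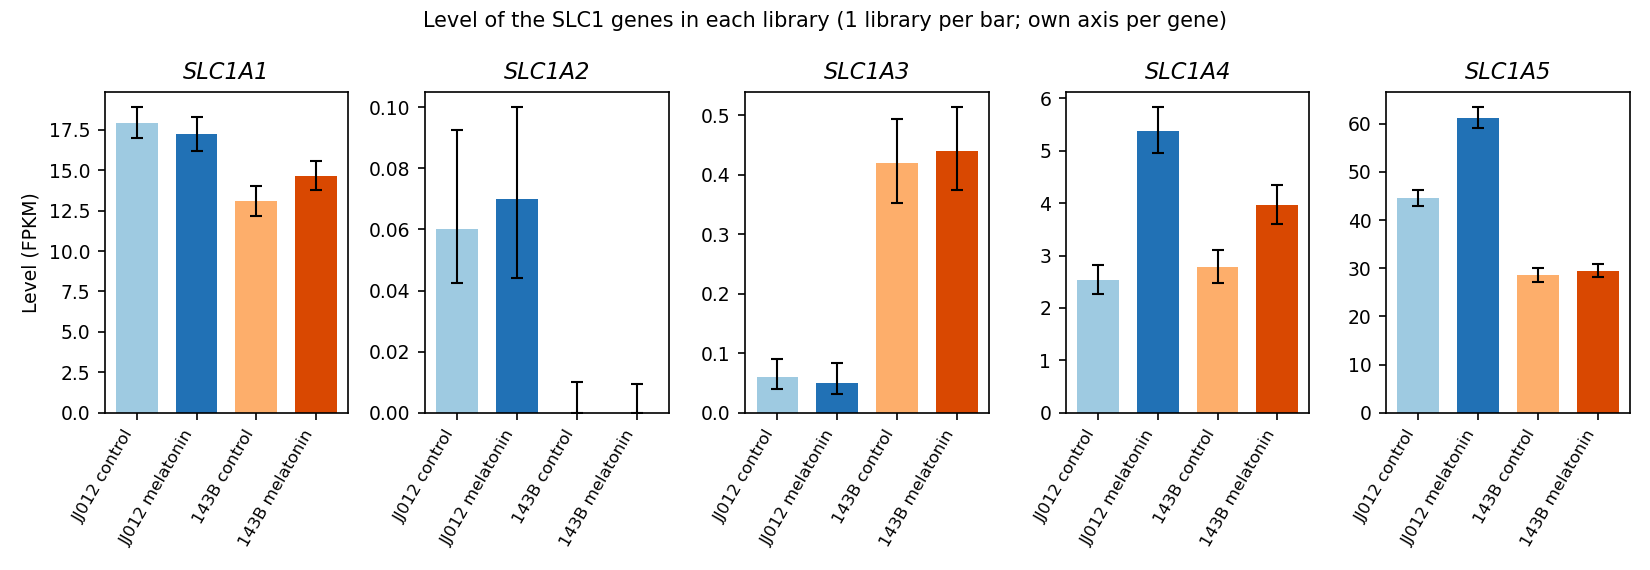
Level in FPKM of each SLC1 gene (vertical axes, a separate scale per gene, all from 0) in the 4 libraries, 1 library per bar, with the exact Poisson 95% interval of its count as the error bar. SLC1A4 stands at 5.38 FPKM in treated JJ012 against 2.53 in its control, and the bars of SLC1A3 are taller in 143B than in JJ012.

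SLC1A5 (ENSG00000105281) lies on the minus strand of chromosome 19, at chr19:46774883-46788594 of hg38. It had 44.52 FPKM in the JJ012 control, 61.26 in treated JJ012, 28.56 in the 143B control and 29.50 in treated 143B. Both JJ012 libraries thus lay above both 143B libraries, with treated JJ012 the highest. The counts behind these levels were 2851, 3295, 1512 and 1687 in the same order. SLC1A5 was expressed above 94.4% of the genes at 1 FPKM or more in the JJ012 control and above 90.3% of those in the 143B control. It supplied most of the FPKM summed over the members, with 68.4% in the JJ012 control, 72.9% in treated JJ012, 63.7% in the 143B control and 60.7% in treated 143B.
With melatonin, the CPM of SLC1A5 changed 1.38-fold in JJ012 (95% interval, 1.31 to 1.45) and 1.03-fold in 143B (0.963 to 1.11). The interval in 143B included 1, and the sign of the change there turned when the libraries were rescaled to TPM. In JJ012 the log2 fold change of FPKM plus a pseudocount of 1 was 0.45, which was below the threshold of 0.58 on this scale, and 25.1% of all tested genes rose by at least as much. Rescaled to TPM, the value was 0.73 and passed the threshold. The ratio in JJ012 divided by that in 143B was 1.33 (1.22 to 1.45), larger than the counting error.

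SLC1A4 (ENSG00000115902) lies on the plus strand of chromosome 2, at chr2:64988477-65023865. It had 2.53 FPKM in the JJ012 control (337 counts), 5.38 in treated JJ012 (603 counts), 2.78 in the 143B control (307 counts) and 3.96 in treated 143B (472 counts). The 2 untreated libraries were close to each other, and both treated libraries lay above both controls. By CPM the rise was 2.13-fold in JJ012 (1.86 to 2.44) and 1.42-fold in 143B (1.23 to 1.65), and neither interval reached 1. The log2 fold change of FPKM was 0.85 in JJ012, a rise that 11% of the tested genes matched or exceeded. It was 0.39 in 143B, below the threshold, where 12.9% of the tested genes rose by at least as much. SLC1A4 therefore stood at a similar place among all genes in both lines, although the spread of all genes was wider in JJ012. The middle 50% of tested genes lay between -0.44 and 0.45 in JJ012 and between -0.18 and 0.23 in 143B. The ratio in JJ012 over that in 143B was 1.5 (1.22 to 1.83).
Its share of the FPKM summed over the members grew from 3.89% to 6.41% in JJ012 and from 6.20% to 8.15% in 143B. The antisense LINC02245, which spans the gene, had at most 27 counts in a library. Whether the counting used the strand is not given in the sources used here.

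SLC1A1 (ENSG00000106688) lies on the plus strand of chromosome 9, at chr9:4490468-4587469. Its levels were 17.90 FPKM in the JJ012 control, 17.22 in treated JJ012, 13.11 in the 143B control and 14.66 in treated 143B. It was the steadiest of the abundant members, with a range of 0.42 over the 4 libraries on the log2 scale of FPKM plus 1. SLC1A5 had a range of 1.07 and SLC1A4 one of 0.85. By CPM, SLC1A1 had a ratio of 0.962 in JJ012 (0.888 to 1.04) from 1367 and 1105 counts, an interval that includes 1. This sign turned with TPM, which gave a log2 fold change of 0.22, and with TMM, which gave 0.02. In 143B the ratio was 1.12 (1.02 to 1.23) from 828 and 1000 counts. Its log2 fold change there was 0.15, far from the threshold. SPATA6L on the other strand, which overlaps its 3' part, had 22 counts in each JJ012 library, and 148 and 115 counts in 143B.

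SLC1A3 (ENSG00000079215) lies on the plus strand of chromosome 5, at chr5:36596588-36688334. It had 25 counts in the JJ012 control, 18 in treated JJ012, 141 in the 143B control and 160 in treated 143B. These are 0.06, 0.05, 0.42 and 0.44 FPKM. The 143B libraries lay well above the JJ012 libraries, and within each line the treated and untreated libraries were close. By CPM the untreated lines differed 6.82-fold (4.44 to 10.9), with JJ012 the lower. With melatonin the ratio was 0.857 in JJ012 (0.441 to 1.64) and 1.05 in 143B (0.832 to 1.33), so that no change was detectable at this depth. An unnamed gene on the other strand, ENSG00000250155, overlaps the 3' end of SLC1A3 and had 113 and 63 counts in JJ012 against 1 and 0 counts in 143B. Its part in the difference between the lines was not tested.
The low FPKM of SLC1A3 depended on the length used. Its deposited exonic length is 21227 bases, which is 5.09 times that of its longest protein-coding transcript in GENCODE 29, with 4170 bases. For SLC1A5 and SLC1A1 the same quotient was 1.16 and 1.07. Per kilobase of this transcript, the level of SLC1A3 would be 2.13 in the 143B control and 2.24 in treated 143B, and 0.312 and 0.267 in JJ012. Its share of the summed level of the members would then be 3.99% in the 143B control, in place of 0.936%. This length was looked up after the values had been seen.

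SLC1A2 (ENSG00000110436) lies on the minus strand of chromosome 11, at chr11:35251205-35420063. It had 28 counts in the JJ012 control and 25 in treated JJ012, or 0.06 and 0.07 FPKM, and 0 counts in both 143B libraries. The 0 counts allow up to 3 counts, or 0.189 CPM in the 143B control. Against this floor, SLC1A2 was at least 7.72-fold higher in the JJ012 control than in the 143B control, with the JJ012 count taken as exact. The CPM ratio with melatonin in JJ012 was 1.06 (0.594 to 1.89). SLC1A2-AS1, its antisense gene, had 0 counts in all libraries. The levels of SLC1A2 and SLC1A3 in JJ012 did not differ beyond their counting intervals, whereas the other neighbours in the order of levels did, in each library.

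The human family has further members, SLC1A6 (EAAT4), a carrier of cerebellar Purkinje cells, and SLC1A7 (EAAT5), a carrier of the retina. SLC1A6 had 24 counts in the JJ012 control, 1 count in treated JJ012 and 0 counts in both 143B libraries. The CPM ratio in JJ012 was 0.0496 (0.00121 to 0.304), below 1 with its whole interval but at 0.16 FPKM and less. SLC1A7 had 1 count in treated 143B and 0 counts elsewhere.

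**Figure D2:**
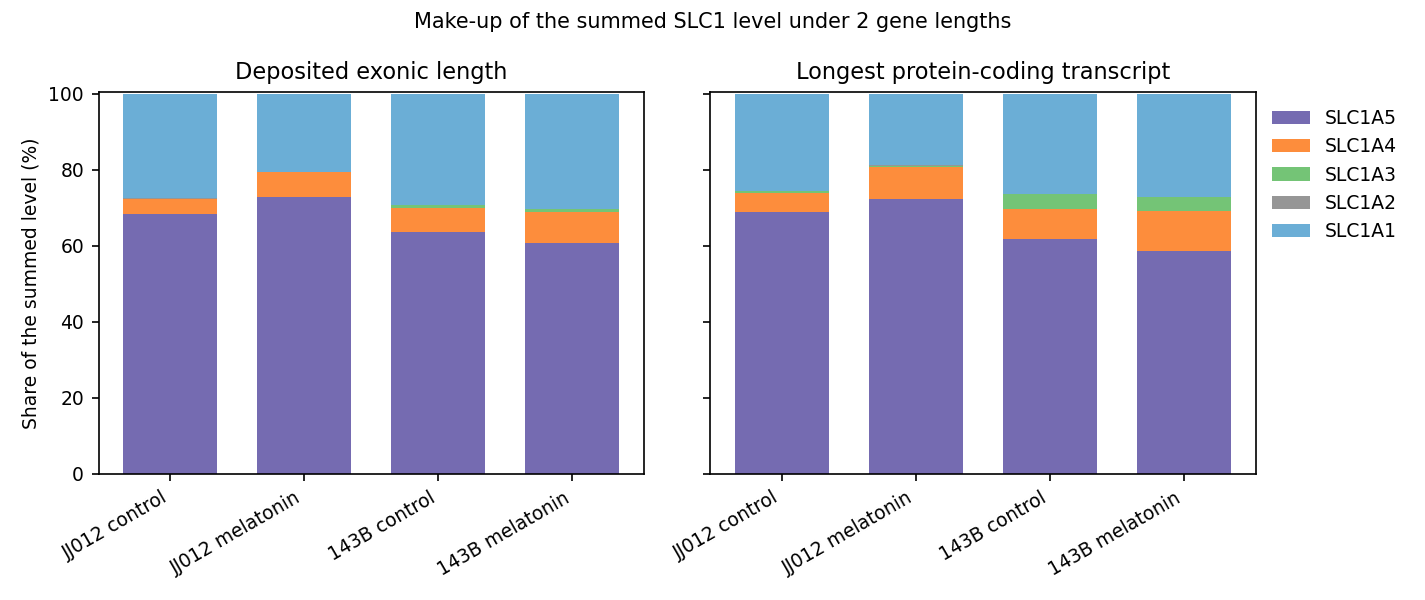
Share in percent of each SLC1 gene in the summed level of the 5 members (vertical axis), per library, with levels per deposited exonic length on the left and per longest protein-coding GENCODE 29 transcript on the right. SLC1A5 takes between 60.7% and 72.9% on the left, and the band of SLC1A3 in the 143B control widens from 0.936% to 3.99% on the right.

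Read together, the summed FPKM of the 5 members was 65.07 in the JJ012 control and 83.98 in treated JJ012, and 44.87 in the 143B control and 48.56 in treated 143B. A gene was tested if either library of a comparison held 1 FPKM or more, which SLC1A1, SLC1A4 and SLC1A5 met each time, and was called changed where its log2 fold change reached 0.58 in either direction. In JJ012, 1 of these 3 members rose and 0 fell, while 38.2% of all 15794 tested genes changed (19.6% higher and 18.6% lower). SLC1A4 was the one. The median log2 fold change of the 3 members was 0.45, beside 0.008 over all tested genes. In 143B, 0 of the 3 members changed, where 12.7% of 14135 tested genes did (6.09% higher and 6.65% lower), and the median was 0.15 beside 0.026. Counting instead the ratios whose 95% interval lay above 1, there were 2 members in JJ012 (SLC1A4 and SLC1A5), beside 36.9% of all tested genes, and 0 below 1, beside 35.2%. There were 2 in 143B (SLC1A1 and SLC1A4), beside 28.4%, and 0 below 1, beside 23.5%. The interval left out 1 in either direction for 72.2% of the tested genes in JJ012 and 52.0% in 143B. The interval says nothing of the variation between cultures.

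Over both lines together, SLC1A4 had the largest melatonin effect of the 5 members, and no member passed the test. In edgeR's quasi-likelihood fit with the line as a block, the log2 fold change of SLC1A4 was 0.80 (adjusted p = 0.83), with higher levels in both treated libraries than in their controls. That of SLC1A5 was 0.25 (edgeR adjusted p = 1), and the other 3 members lay between -0.06 and 0.11. By an adjusted p under 0.05, 0 of the 5 members were called, beside 68 of 19301 tested genes (0.352%). At an unadjusted p under 0.05, SLC1A4 passed, beside 5.9% of all tested genes, while with DESeq2 0 of the 5 members passed at either level. Such a fit takes a difference between the responses of the lines as error, and a missed threshold at 1 residual degree of freedom does not show that a gene did not respond.

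**Figure D3:**
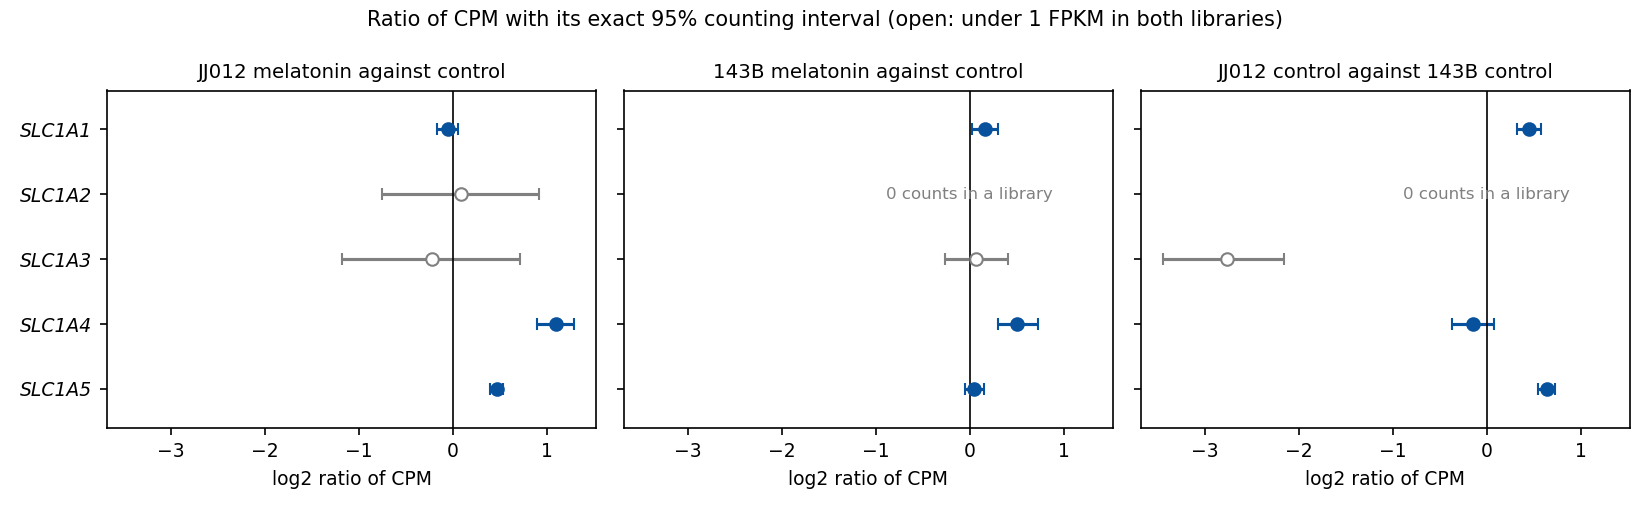
Log2 ratio of CPM (horizontal axis) of each SLC1 gene in the 3 comparisons, with its exact 95% counting interval; open grey points mark genes under 1 FPKM in both libraries. SLC1A4 lies to the right of 0 in both melatonin comparisons, and SLC1A3 lies far to the left when the untreated lines are compared.

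Between the untreated lines, SLC1A5 was 1.56-fold higher in JJ012 than in 143B by CPM (1.46 to 1.66) and SLC1A1 was 1.37-fold higher (1.25 to 1.49). SLC1A4 had a ratio of 0.908 (0.775 to 1.06), an interval that includes 1. By the log2 fold change of FPKM, SLC1A5 with 0.62 was the member of the 3 that passed the threshold, in a comparison where 68.7% of all 16929 tested genes did (41.3% higher in JJ012 and 27.4% lower). By the counting interval 2 of the 3 members, SLC1A1 and SLC1A5, were higher in JJ012 and 0 were lower, beside 86.0% of all tested genes in either direction, 50.8% higher and 35.1% lower. The median of all genes in this comparison was 0.286, toward JJ012. Whether this shift came from the scaling or from the lines was not tested. With the changes centred on the median gene, the log2 fold change of SLC1A5 was 0.34, that of SLC1A1 0.14 and that of SLC1A4 -0.38, and no member of the 3 passed. With TMM, the ratio of SLC1A1 was 1.07 with an interval that includes 1 (0.982 to 1.17), while SLC1A4 was lower in JJ012, with a ratio of 0.712 (0.608 to 0.834). The cell lines and all that differs between their cultures cannot be told apart.

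**Figure D4:**
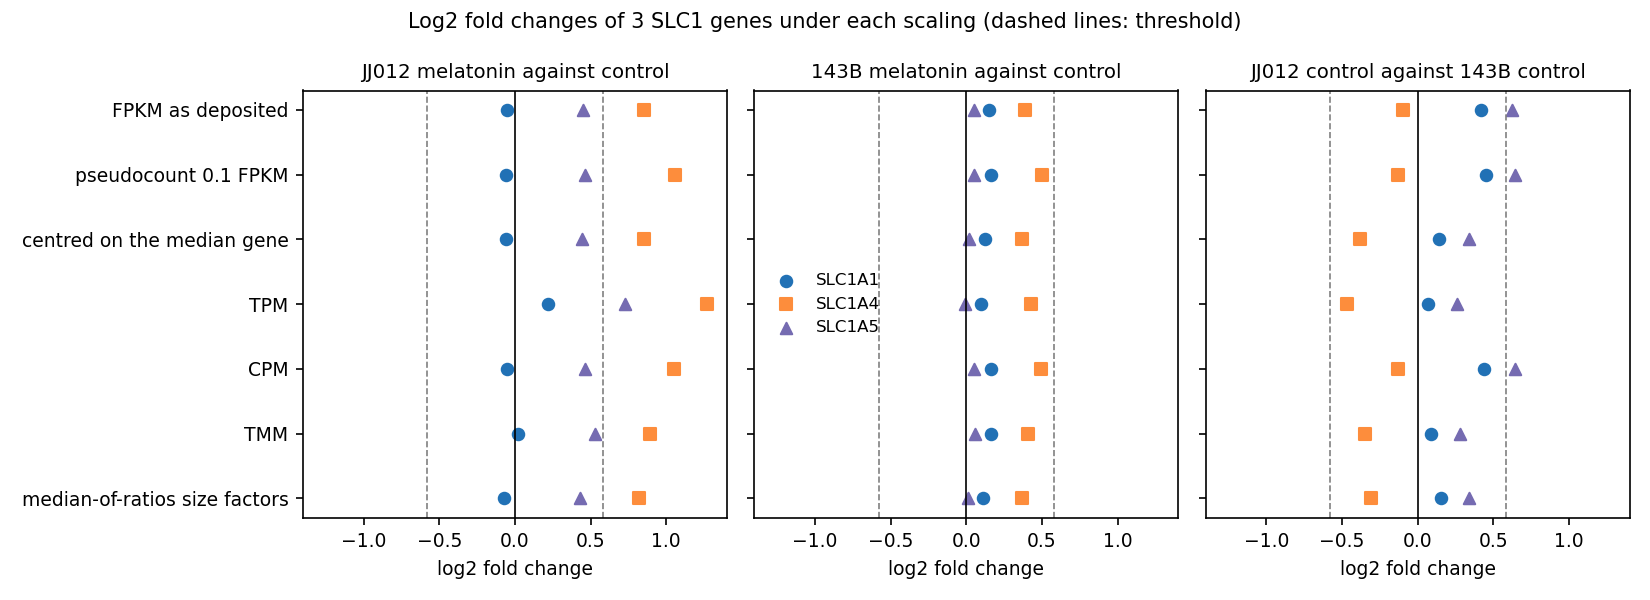
Log2 fold change (horizontal axes) of SLC1A1, SLC1A4 and SLC1A5 in the 3 comparisons under 7 settings (rows), with the threshold of 0.58 as dashed lines. SLC1A4 stays to the right of the threshold in JJ012 in every row shown, and SLC1A5 crosses the threshold with TPM; between the untreated lines all 3 genes shift to the left when the changes are centred or scaled by TPM, TMM or size factors.

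Promoter sequence was looked up because SLC1A4 and SLC1A5 both rose in JJ012 by their counting intervals. RefSeq windows on GRCh38.p14, from 250 bases before to 50 bases after each annotated start, were found for 4 of the 5 members and not for SLC1A2. SLC1A5 and SLC1A3 have 3 such starts, SLC1A4 has 2 and SLC1A1 has 1. The windows were searched on both strands for TGATGCAA, a form of the composite element that ATF4 and C/EBP proteins bind in amino acid starvation, for its looser form TGATGNAA, for CACGTG, the E-box that MYC and other factors bind, and for TGACNNNGC, the core of the antioxidant response element bound by NRF2. Every match to TGATGNAA was also one to TGATGCAA, while the CACGTG and TGACNNNGC matches lay in other windows. TGATGCAA was present in a window of SLC1A3, SLC1A4 and SLC1A5, while 1.09% of all 27167 genes with windows hold it, and 1.47% of the 5165 genes with at least 2 windows. TGATGNAA is held by 4.47% of all genes and 7.03% of those with at least 2 windows. The matches to TGATGCAA are printed within 30 bases of the gene's own strand, with the motif in capitals.
SLC1A4, at the second start, chr2:64989381-64989410: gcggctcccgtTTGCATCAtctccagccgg
SLC1A5, at the third start, chr19:46784893-46784922: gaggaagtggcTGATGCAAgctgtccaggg
SLC1A3, at the first start, chr5:36596357-36596386: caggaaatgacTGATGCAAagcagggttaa
In SLC1A4 the motif reads on the opposite strand and covers the start itself, from position -7, where RefSeq places a first base at 64989399 and the longest coding transcript of GENCODE 29 begins at 64989401. In SLC1A5 it begins at position -97 of an internal start, downstream of the start of its longest coding transcript. In SLC1A3 it begins at position -220 of the outermost start, 36596588, whereas the longest coding transcript of GENCODE 29 begins downstream at 36606355. SLC1A1 holds none of these motifs in its window. A match gives letters and no evidence of binding, and a window without one says only that these letters are not in it.
CACGTG was found once, at the second start of SLC1A5, and is held by 8.74% of all genes and 15.1% of those with at least 2 windows. It is shown because SLC1A5 is a textbook target of MYC.
SLC1A5, at the second start, chr19:46787326-46787355: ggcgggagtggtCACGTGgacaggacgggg
TGACNNNGC was found at the second start of SLC1A5 and of SLC1A3. It is held by 16.1% of all genes and 26.8% of those with at least 2 windows. The 250 bases before the outermost start of SLC1A5, where its longest coding transcript begins, hold none of these motifs and are given as the promoter of the most abundant member. They are 66.8% G and C with 19 CG dinucleotides.
SLC1A5, chr19:46788595-46788844, minus strand: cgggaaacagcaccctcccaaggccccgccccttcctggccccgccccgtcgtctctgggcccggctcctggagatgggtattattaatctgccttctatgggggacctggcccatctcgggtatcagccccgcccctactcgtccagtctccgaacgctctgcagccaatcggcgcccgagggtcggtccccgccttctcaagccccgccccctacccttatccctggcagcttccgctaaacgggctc

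The genes around the SLC1 carriers were taken from lists. Among 7 transcription factors known to act on SLC1 genes, 3 of the 6 tested in JJ012 rose and 0 fell, beside 19.6% and 18.6% of all tested genes, with a median log2 fold change of 0.94. MYC rose from 2.86 to 10.20 FPKM, EPAS1 from 9.11 to 27.84 FPKM and HIF1A, the oxygen-regulated factor, from 77.77 to 192.42 FPKM. ATF4 had 135.49 and 202.61 FPKM in JJ012, just below the threshold, and 345.50 and 352.52 FPKM in 143B. In 143B, 0 of the 7 rose and 1 fell, beside 6.09% and 6.65% of all tested genes, with a median of -0.07. That one was MYCN, from 2.49 to 0.99 FPKM.
Among 7 transporters that work beside SLC1 uptake, 4 of the 6 tested rose in JJ012 and 1 fell, beside 19.6% and 18.6% of all tested genes, with a median of 0.83. SLC7A11, which exports glutamate in exchange for cystine, went from 1.13 to 10.35 FPKM. SLC3A2, the shared heavy chain, went from 10.64 to 33.93 FPKM, and SLC7A5, which exchanges glutamine for essential amino acids, from 9.22 to 19.75 FPKM. SLC38A2 also passed, with 73.62 and 115.09 FPKM. SLC38A5, a glutamine carrier, fell from 10.82 to 2.21 FPKM. In 143B, 0 of the 5 tested changed, beside 12.7% of all tested genes, with a median of -0.27. SLC38A5 was not among those 5, being under 1 FPKM there, but its counts were also lower with melatonin in 143B, 2 against 29 (0.03 against 0.45 FPKM).
Among 17 enzymes that make or use the substrates of the carriers, 4 of the 14 tested rose and 2 fell in JJ012, with a median of 0.30. These are 42.9% of the 14, near the 38.2% of all tested genes that changed. GOT1, the cytosolic aspartate aminotransferase, rose from 14.49 to 32.71 FPKM and PSAT1, of serine synthesis, from 5.0 to 10.28 FPKM. GCLM, of glutathione synthesis, with 6.38 and 10.72 FPKM and GLUD1, glutamate dehydrogenase, with 6.38 and 10.69 FPKM also passed. GPT2, the mitochondrial alanine aminotransferase, fell from 11.12 to 5.45 FPKM and PSPH, the last enzyme of serine synthesis, from 6.07 to 3.01 FPKM. In 143B, 0 of the 15 tested changed, beside 12.7% of all tested genes, with a median of 0.05.
Of 12 partners and regulators of SLC1 proteins, all 12 were tested in JJ012, where 1 rose and 3 fell, with a median of 0.07. These are 33.3% of the 12, below the 38.2% of all tested genes that changed. ARL6IP5, an inhibitor of SLC1A1, fell from 52.50 to 32.10 FPKM, and RNF5, a ubiquitin ligase that acts on SLC1A5, fell from 40.58 to 24.68 FPKM. The scaffold gene SLC9A3R1 fell from 54.17 to 34.93 FPKM in JJ012 and rose from 10.28 to 16.07 FPKM in 143B. ARHGEF11, which binds SLC1A6, rose from 5.84 to 10.97 FPKM in JJ012. SLC9A3R1 was the one of the 11 tested in 143B that changed, or 9.09%, beside 12.7% of all tested genes. The median there was -0.09.

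**Figure D5:**
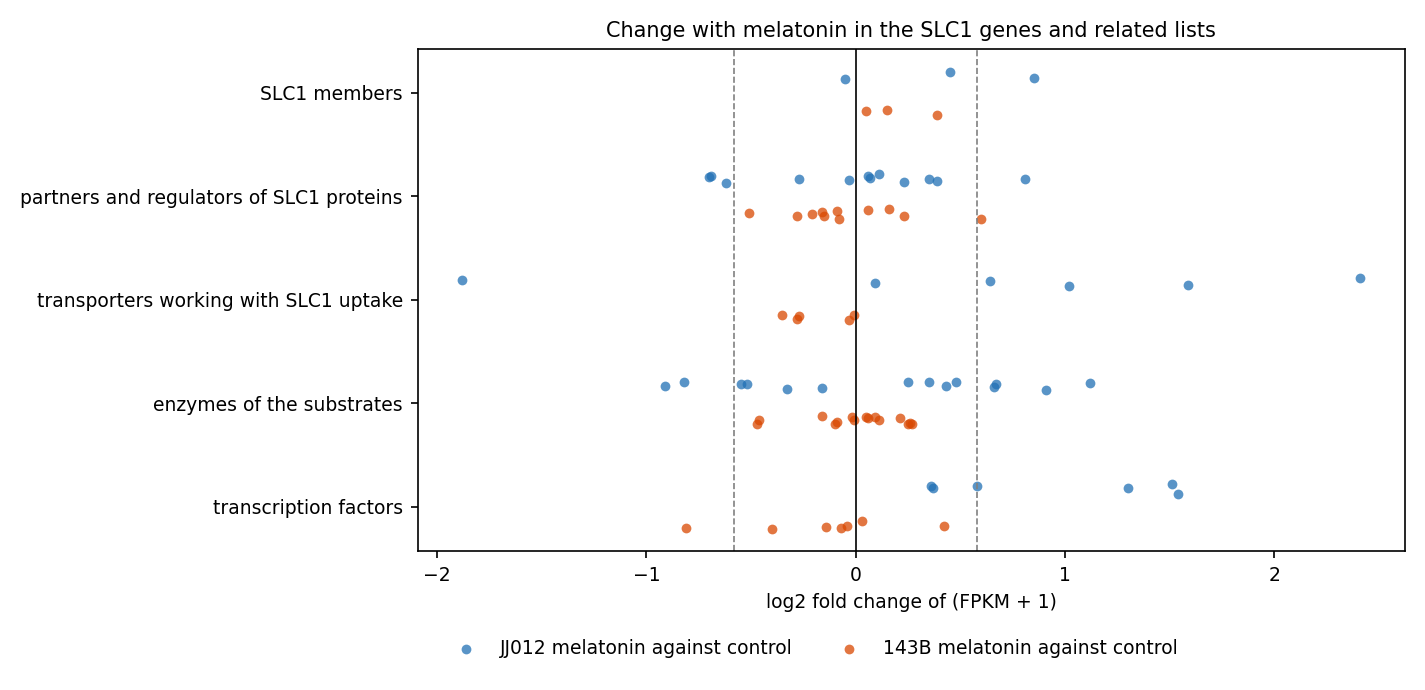
Log2 fold change of FPKM plus 1 with melatonin (horizontal axis) of the tested SLC1 genes and of the tested genes of 4 lists (rows), in JJ012 (blue) and 143B (orange), with the threshold of 0.58 as dashed lines; each point is 1 gene. The JJ012 points reach from -1.88 for SLC38A5 to 2.41 for SLC7A11, whereas most 143B points lie inside the threshold.

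The pattern of a member over the 4 libraries was compared with that of other genes where its range was at least 1 on the log2 scale, which only SLC1A5 reached. Of the 8528 protein-coding genes that reached 5 FPKM anywhere, the most alike by the root mean square difference of their centred log2 levels were ZFX (0.012), PHKA2 (0.019) and ORC4 (0.021). ZFX, a zinc finger transcription factor, had 3.55 and 5.33 FPKM in JJ012 and 1.94 and 2.07 FPKM in 143B. PHKA2 encodes a subunit of phosphorylase kinase and ORC4 one of the origin recognition complex. Likeness over 4 libraries is a description and was found among many genes.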

How the data were processed

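Poly(A) RNA of JJ012 and 143B cells was sequenced as paired ends. The deposited table holds raw counts of each gene in each library, the exonic length of each gene, and FPKM from the authors, which equal the counts over exonic length and library total within 0.005. The submitters' processing notes name cutadapt 1.9.1, HISAT2 2.2.1, HTSeq 0.6.1, DESeq2 and hg38, with no role. The annotation release and the strand setting are not given in the sources used here. Of the genes shared with GENCODE 29 (GRCh38), 71.4% have the same start and end.

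Log2 fold changes were computed from FPKM with a pseudocount of 1, which understates the change of low genes, over genes with at least 1 FPKM in a library compared, at a threshold of 0.58. CPM ratios carry exact (Clopper-Pearson) 95% intervals, levels exact Poisson intervals, and ratios between lines exact conditional intervals. The floor was 3 counts. Within a line there is no replicate, so no test was run there. The melatonin effect over both lines was tested with edgeR's quasi-likelihood test (line and treatment as terms, TMM, filterByExpr, Benjamini-Hochberg adjustment), a fit added after seeing the data, with DESeq2 1.42.0 as its alternative. Alternatives were a pseudocount of 0.1, no filter, a filter of 5 FPKM, centring, TPM, CPM, TMM (edgeR 4.0.16), median-of-ratios size factors, a threshold of 1, totals without mitochondrial genes and, added after seeing the data, transcript length.

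Members and lists were chosen with earlier results of these data known. A further list and a neighbouring gene are not reported here. Named from a list were at most 4 genes with the largest change past the threshold, and SLC38A2, GCLM, GLUD1, ATF4, SLC1A6 and SLC1A7 after their values were seen. On simulated counts with 200 genes changed 3-fold, 100% were recovered in each comparison among 61806 genes, and 3.03% (JJ012) and 3.38% (143B) of unchanged tested genes passed. These counts held counting error alone, and the changed genes were drawn from those expected at 200 counts or more. A 3-fold change lies far above the threshold, so the recovery was near certain. Neither share covers variation between cultures. In simulated counts for the fit over both lines, 100% of 200 such genes among 19978 were recovered at a coefficient of variation of 0.1, and 39% among 19687 at 0.3. The changed genes averaged at least 200 counts and changed by the same fold in both lines. Recovery where the lines respond unequally was not simulated. Python 3.11.15, scipy 1.17.1, pandas 2.3.3, matplotlib 3.10.9 and R 4.3.3 were used.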

Additional observations from a re-analysis of the deposited data

Results flagged for a closer look

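The CPM ratio of SLC1A1 with melatonin was below 1 in JJ012 (0.962) and above 1 in 143B (1.12), which puts the lines on opposite sides of 1. The JJ012 interval (0.888 to 1.04) includes 1, so no change was detected there. The quotient of the ratios was 0.861 (95% counting interval, 0.761 to 0.974), but with TMM the JJ012 ratio was 1.02. SLC1A3 had 0.857 in JJ012 and 1.05 in 143B, with a quotient of 0.816 (0.402 to 1.63). With 1 library per condition, neither difference was tested against the variation between cultures.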

How the results depend on the processing

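Without the line as a replicate block, the fit of melatonin over both lines called 0 genes in place of 68 (6 at an unadjusted p under 0.05), and DESeq2 with the block called 7. Library totals, a filter of 1 FPKM and no filter gave 71, 82 and 69. In each of these, 0 members were called, and the adjusted p of SLC1A4 lay between 0.813 and 1. The effect of SLC1A3 was 0.01 without the block and that of SLC1A2 -0.04 with DESeq2, both turned in sign. No library could be left out, since 3 libraries leave this fit no residual degree of freedom. In JJ012, the number of members that changed was 2 with TPM (SLC1A4 and SLC1A5) and 0 at a threshold of 1, in place of 1. Under TPM the median gene of JJ012 was at 0.209, over 23153 tested genes in place of 15794. The share of higher genes among the changed was 62.4% in place of 51.4%. In 143B the number stayed 0 in all settings run. Between the untreated lines it was 0 with centring, TMM, size factors or a threshold of 1, in place of 1. It was 3 with CPM and 2 per transcript length. With TPM it was 1, but the member was SLC1A3, lower in JJ012. The filter and the pseudocount of 1 were applied in the unit of each setting, so that the tested genes changed too. Between the untreated lines 24591 genes were tested by TPM and 18991 by CPM, against 16929 by FPKM. TMM moved the ratio of SLC1A5 in JJ012 to 1.45, and between the lines those of SLC1A5 to 1.22, SLC1A1 to 1.07 and SLC1A4 to 0.712. No other CPM ratio, and no quotient of ratios between the lines, left its counting interval.

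Per transcript length, 2 of the 4 libraries kept the order of the members, since SLC1A3 and SLC1A2 changed places in JJ012. The shares in the JJ012 control, treated JJ012, the 143B control and treated 143B became 25.5%, 18.8%, 26.2% and 27.0% for SLC1A1, 0.417%, 0.273%, 3.99% and 3.86% for SLC1A3, and 5.13%, 8.38%, 7.94% and 10.4% for SLC1A4, while SLC1A2 had 0.162% and 0.132% in JJ012. These moves follow from the lengths alone. Of 78 log2 fold changes of single members recomputed, 20 moved beyond their counting error and 0 called values changed sign. Only SLC1A4 in JJ012 and SLC1A5 between the untreated lines had called values to begin with. Values that were not called did turn in sign, such as SLC1A1 in JJ012 with TPM and SLC1A3 in 143B with centring. Depth limits SLC1A2 and SLC1A3 in JJ012, with 28 counts or fewer.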
